A study of Mus musculus with 4 samples.

Results

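The genes described here act in the phagocytosis checkpoint and in the uptake of apoptotic cells, namely Cd47, Sirpa, Pirb, Axl, Mertk and Gas6. They are 6 of the 30408 genes listed in the 4 libraries, all 6 were listed in every library, and they were chosen by symbol, with earlier results of these data known, and not by a threshold on measured values. The libraries hold cells of tumours formed by MB49, a mouse bladder carcinoma cell line, in male and in female mice. Live cells of each host sex were flow-sorted on CD45, the surface antigen of blood-derived cells, and each fraction gave 1 BD Rhapsody library, so that there were 4 groups of 1 library: male CD45-positive, female CD45-positive, male CD45-negative and female CD45-negative. All hosts carried the same tumour line, no drug or allele is named, and the strain and age of the mice and the number of tumours pooled in a library were not given in the sources used here. With 1 library a group there is no spread between animals, so no test was possible. Every interval below is a 95% interval for counting error only, and UMIs (unique molecular identifiers, 1 per captured transcript) are not independent animals. A difference between the sexes is a difference between 2 libraries. Each macrophage over carcinoma ratio likewise divides a CD45-positive by a CD45-negative library, so cell class cannot be told apart from library and sort.

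CD47 on a target cell binds SIRPα on a phagocyte, and the bound receptor recruits phosphatases that hold back engulfment. PirB, the mouse counterpart of the human LILRB receptors, is a further inhibitory receptor of myeloid cells and binds MHC class I and angiopoietin-like proteins. Uptake is driven from the other side: dying cells expose phosphatidylserine, the secreted protein GAS6 bridges this lipid to the receptor tyrosine kinases AXL and MerTK, and a macrophage that carries these receptors ingests the cell and turns its inflammatory response down. In tumours AXL is known on carcinoma cells as well as on macrophages.

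The text compared the 6 genes between cell classes, and the promoters of 4 of them are shown because they cover the contrast the results turn on: Pirb and Mertk were almost undetected in carcinoma cells, while Axl and Cd47 were abundant there. RefSeq promoters on GRCm38.p6 were matched for 5 of the 6 members, and the 250 bases before the start are printed 5′ to 3′ on the strand of the gene. They lie at chr7:3720383-3720632, minus strand (Pirb), chr2:128698665-128698914, plus strand (Mertk), chr7:25788734-25788983, minus strand (Axl) and chr16:49855404-49855653, plus strand (the first of the Cd47 starts).
Pirb: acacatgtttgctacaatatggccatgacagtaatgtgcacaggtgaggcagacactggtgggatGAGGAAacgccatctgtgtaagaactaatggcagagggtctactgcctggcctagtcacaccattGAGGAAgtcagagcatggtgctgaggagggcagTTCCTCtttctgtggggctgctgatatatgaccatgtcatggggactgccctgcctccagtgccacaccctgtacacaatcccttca
Mertk: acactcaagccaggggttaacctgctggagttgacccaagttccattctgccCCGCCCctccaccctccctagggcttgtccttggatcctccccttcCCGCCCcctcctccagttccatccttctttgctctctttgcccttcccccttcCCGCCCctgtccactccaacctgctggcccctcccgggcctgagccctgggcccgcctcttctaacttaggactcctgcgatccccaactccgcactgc
Axl: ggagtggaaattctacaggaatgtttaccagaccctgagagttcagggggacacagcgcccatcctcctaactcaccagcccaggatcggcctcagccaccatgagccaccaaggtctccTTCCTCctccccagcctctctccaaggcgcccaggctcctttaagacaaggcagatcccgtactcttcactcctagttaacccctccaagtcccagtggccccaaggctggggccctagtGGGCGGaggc
Cd47: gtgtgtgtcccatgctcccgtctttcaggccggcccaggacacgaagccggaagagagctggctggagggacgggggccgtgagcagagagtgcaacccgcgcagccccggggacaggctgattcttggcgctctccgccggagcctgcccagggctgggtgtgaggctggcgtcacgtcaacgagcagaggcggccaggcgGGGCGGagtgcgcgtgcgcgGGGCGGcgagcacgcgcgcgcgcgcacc
Capitals mark GAGGAA, the core bound by Ets factors such as PU.1, and GGGCGG, the GC box, each searched on both strands, so that TTCCTC and CCGCCC are the same motifs read from the other strand. The Pirb window held 3 copies of GAGGAA, starting 185, 120 and 87 bases before the start, and no GC box. The Mertk window held 3 GC boxes and no GAGGAA. Axl had 1 copy of each and Cd47 had 2 GC boxes. Over one window for each of 27025 genes, 23.1% held GAGGAA and 32.9% held a GC box; no printed window held the AP-1 motif TGANTCA, found in 6.87% of windows, or TATAAA, found in 13%. No copy overlapped another motif, and a match is a description of letters and not of a bound factor.

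The male and female CD45-positive libraries held 5771 and 5169 cell barcodes with 40644787 and 37705608 UMIs, and the CD45-negative libraries 6023 and 5152 barcodes with 62273035 and 44601391 UMIs; 19375 of the 22115 barcodes passed the filters. Cells were assigned to classes by the number of marker genes detected, with none of the 6 genes among the markers. Macrophages showed at least 7 of 10 markers (1988 male and 2530 female cells), and carcinoma cells at least 2 of 11 epithelial and MB49 markers with no Ptprc UMI (5040 male and 3646 female cells). The CD45 labels fitted their marker: Ptprc, which encodes CD45, stood at 742 (male) and 648 CPM (female) in CD45-positive cells, against 1.79 (male) and 1.35 CPM (female) in CD45-negative cells, where CPM is the count scaled to a total of 1000000 UMIs. Xist had no UMI in the CD45-positive cells of male hosts and 182 CPM in those of female hosts. The Y-linked gene Ddx3y stood there at 151 and 0.374 CPM. In CD45-negative cells of male and female hosts, Xist stood at 0.0325 and 4.67 CPM and Ddx3y at 11.2 and 16.0 CPM. Those cells were mostly of the shared tumour line, and Ddx3y did not separate their host sex labels. Cells that met 2 immune gates at once, mostly those of macrophages and T cells, numbered 594 of 5379 in male and 664 of 4595 in female CD45-positive cells and were left out as possible doublets. The barcodes are deposited as running numbers, so barcodes shared by libraries could not be counted.

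The 2 genes of the inhibitory pair differed in opposite directions between the cell types, and macrophages held both. Cd47, the "do not eat me" ligand, was found at 350 CPM (7647 UMIs) in male and 326 CPM (8232 UMIs) in female macrophages, against 629 CPM (37970 UMIs) in male and 957 CPM (40708 UMIs) in female carcinoma cells. The macrophage to carcinoma ratio was thus 0.556 (0.543 to 0.570) in male and 0.341 (0.333 to 0.349) in female tumours. Its receptor gene Sirpa ran the other way, with 332 CPM in male and 333 CPM in female macrophages, against 8.94 and 19.3 CPM in male and female carcinoma cells, which made ratios of 37.2 (34.0 to 40.6) and 17.2 (16.0 to 18.5). Pirb was nearly absent from the carcinoma counts: macrophages held 2170 male and 2383 female UMIs, or 99.3 and 94.4 CPM, against 8 and 5 UMIs in all male and female carcinoma cells. Its ratios were 749 (380 to 1737) in male and 803 (344 to 2476) in female tumours, the female one being 1248 without the 5% of cells with most UMIs.

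The uptake receptors were not alike in this respect. Mertk, the receptor through which macrophages clear apoptotic cells, had 1752 UMIs (80.1 CPM) in male and 1625 UMIs (64.4 CPM) in female macrophages, against 1 UMI in 5040 male and 0 UMIs in 3646 female carcinoma cells. The male ratio, which rests on that 1 UMI, was 4838.5 (867 to 191218), and 1664 as a ratio of the mean of the cells' own CPM. It is not on the same footing as the female ratio, which was 913 with the 0 UMIs of carcinoma cells set to 3. The lower end of the female interval was 742, and it had no upper end. Axl was present on both sides. It stood at 541 CPM in male and 332 CPM in female macrophages, against 315 CPM in male and 427 CPM in female carcinoma cells, the ratios being 1.72 (1.68 to 1.76) and 0.778 (0.758 to 0.799). Axl was higher in macrophages in the male tumours and lower in the female tumours, although the female value became 1.02 with median-of-ratios scaling. Gas6, the ligand of both receptors, was found at 137 CPM in male and 87.6 CPM in female macrophages, against 30.4 and 37.7 CPM in male and female carcinoma cells, with ratios of 4.50 (4.25 to 4.77) and 2.32 (2.18 to 2.48).

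Read against the background, 5 of the 6 genes were at least 1.5-fold higher in macrophages in male tumours, as were 19.9% of 12546 genes with at least 100 UMIs, and 4 of 6 in female tumours, as were 20.2% of 12124. Cd47 was the one member at least 1.5-fold higher in carcinoma cells in both sexes, as were 45.2% of genes in male and 43.0% in female tumours; a lower Cd47 level in macrophages is thus no rare pattern here. The median log2 ratio over all these genes was -0.46 in male and -0.40 in female tumours, so each ratio stands that much higher relative to the typical gene. With median-of-ratios scaling, which removes this shift, the Cd47 ratio was 0.761 in male and 0.448 in female tumours, so that the male value came within 1.5-fold. Few macrophage transcripts were found in carcinoma cells: 9 of the 10 macrophage markers summed to 9.95 CPM in male and 13.6 CPM in female carcinoma cells, C1qa to 0.348 and 0.470 CPM, and Cd68 alone to 33.6 and 92.4 CPM.

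**Figure D1:**
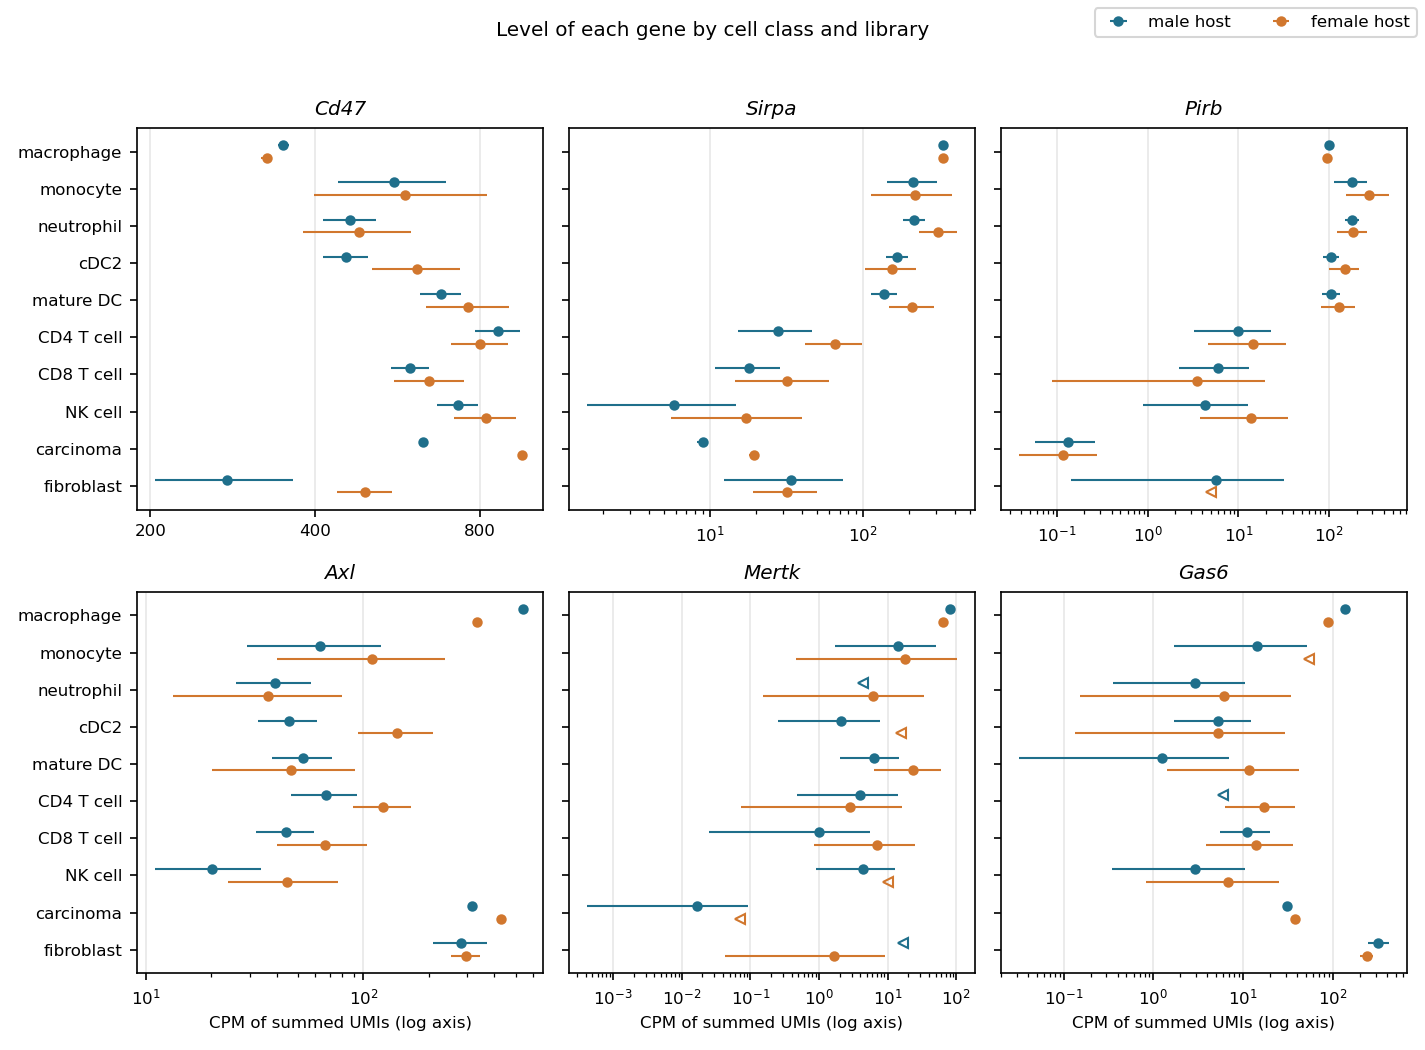
Level of each gene (x axis, CPM of summed UMIs, log axis whose range differs between panels) in 10 cell classes for the male and female library, with 95% counting intervals; open triangles stand at the level of 3 UMIs where none was found. Mertk and Gas6 stood at 80.1 and 137 CPM in male and at 64.4 and 87.6 CPM in female macrophages, Cd47 was lower in macrophages than in any other immune class shown, and Axl differed in order between macrophages and carcinoma cells with host sex (a female difference that is not kept with median-of-ratios scaling).

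The share of cells with a UMI was split between macrophages and carcinoma cells for Mertk and Sirpa. At full depth Axl and Cd47 were instead detected in most cells of each class. Cd47 was detected in 85.9% of male and 81.8% of female macrophages, against 91.8% of male and 94.5% of female carcinoma cells. Axl was detected in 86.0% of male and 70.1% of female macrophages, against 82.7% of male and 88.1% of female carcinoma cells. Mertk was seen in 45.3% of male and 35.2% of female macrophages, against 0.0198% (1 of 5040) of male and 0 of 3646 female carcinoma cells, a zero that allows a share of up to 0.0823% of cells with a UMI and sets no limit on cells that express the gene. Sirpa was found in 85.5% and 83.9% of male and female macrophages, against 8.55% and 17.8% of male and female carcinoma cells. Median depth was 10750 UMIs per male and 8670.5 per female macrophage, against 10646.5 and 10931.5 UMIs per male and female carcinoma cell. With each cell thinned to 2000 UMIs, Axl was detected in 57.8% of male and 40.0% of female macrophages, Mertk in 14.6% and 11.3%, and Gas6 in 21.6% and 12.1%, while Sirpa (47.0% and 47.1%) and Pirb (17.2% and 17.3%) had close shares in both. Cd47 was then detected in 867 of 1845 male and 1079 of 2374 female macrophages, against 3078 of 4710 male and 2696 of 3385 female carcinoma cells. Axl was then detected in 2066 of 4710 male and 1866 of 3385 female carcinoma cells.

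Lymphocytes, here T and NK cells, give a level of macrophage transcripts outside macrophages. Whether such counts come from free RNA, from doublets or from the lymphocytes themselves was not tested. In 812 male lymphocytes the C1q genes stood at 2.69 to 4.85% of their macrophage level, and in the female lymphocytes at 8.97 to 14.3%. Sirpa in lymphocytes was 5.21% (male) and 11.9% (female) of its macrophage level, Mertk 3.53% and 4.52%, Gas6 5.42% and 14.4%, and Pirb 7.12% and 10.3%. Mertk stayed within or below the C1q range in both libraries. Sirpa and Pirb exceeded that range in male lymphocytes (49 and 20 UMIs) and Gas6 slightly in both. The macrophage genes Apoe, Lyz2, Csf1r and Mrc1 ran from 2.36% to 4.99% in male and from 5.93% to 16.3% in female lymphocytes. Female Gas6 lay inside this wider range, and male Sirpa, Pirb and Gas6 lay above it. No lymphocyte level was read from such counts. Axl stood further above both ranges, at 8.94% in male and 28.3% in female lymphocytes. In the female library it had 123 CPM in CD4 T cells and 206 CPM in regulatory T cells. The part that free RNA has in this Axl signal was not tested.

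Across the other classes the order of levels differed by gene. Cd47 was lower in macrophages than in any other immune class with at least 20 cells, in either sex; CD4 T cells (863 CPM male, 799 CPM female) and NK cells (729 and 820 CPM) were among the highest, with overlapping intervals, and 21 female plasmacytoid dendritic cells stood apart at 1698 CPM (1410 to 2028). Sirpa was highest in male macrophages, followed by neutrophils (215 CPM), and in female hosts macrophages, neutrophils (310 CPM) and plasmacytoid dendritic cells (334 CPM) overlapped. The type 1 dendritic cells of the male library were low, at 16.8 CPM. Pirb was higher in neutrophils (180 CPM male, 182 CPM female) and monocytes (176 and 273 CPM) than in macrophages. Outside macrophages Mertk was low: the next class was monocytes in male hosts, at 14.1 CPM (1.71 to 50.9), and mature dendritic cells in female hosts, at 23.3 CPM (6.34 to 59.6). Gas6 was highest in fibroblasts, with 321 CPM in 20 male cells, 45.6% of whose Gas6 UMIs came from 1 cell, and 239 CPM in 57 female cells. Fibroblasts also held 282 and 296 CPM of Axl.

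Sirpa and Pirb belong to families of near-identical genes. Sirpb1c, a close relative of Sirpa, was listed at 201 CPM in male and 249 CPM in female macrophages, and how reads shared by such copies were divided is not stated, so the Sirpa and Pirb levels carry that uncertainty. Mertk overlaps an antisense gene, Gm14011, and the 3′ end of Gas6 overlaps Tmem255b on the opposite strand; whether counting used the strand is not stated. On mm10 (GENCODE M21) Axl spans chr7:25757273-25788705, Mertk chr2:128698956-128802894 and Gas6 chr8:13465374-13494490.

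The other genes of the pathway, a fixed set of 11 lists, were read in the same way. Of the inhibitory receptors of phagocytes other than Sirpa and Pirb, 7 had at least 20 UMIs in macrophages and carcinoma cells together. All 7 were at least 1.5-fold higher in macrophages in both sexes, as were 19.9% of all genes in male and 20.2% in female tumours. Several of the 7, such as Siglece and Lilr4b, reached 20 UMIs only through macrophages, so that minimum fixed their direction. The median log2 ratio of the 7 was 8.30 in male and 7.49 in female tumours (against -0.46 and -0.40 for all genes). Among them Lair1, a collagen receptor, had 297 and 285 CPM in male and female macrophages, against 0 and 2 UMIs in male and female carcinoma cells. The phosphatase genes Ptpn6 (SHP-1) and Inpp5d (SHIP-1) were higher in macrophages, at 197 and 121 CPM in male and 167 and 105 CPM in female macrophages, whereas Ptpn11 (SHP-2) was lower, at 48.7 and 45.7 CPM in male and female macrophages, against 75.5 and 82.4 CPM in male and female carcinoma cells.

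Ligands for the inhibitory receptors were found in both cell classes. Of the 8 ligands and partners other than Cd47, 3 were at least 1.5-fold higher in macrophages and 2 lower in male tumours, and 3 and 1 in female tumours. Over all genes 19.9% were that much higher in macrophages and 45.2% lower in male tumours, and 20.2% and 43.0% in female tumours. Angptl2, a PirB ligand, stood at 1.92 CPM in male and 4.52 CPM in female macrophages, against 103 and 122 CPM in male and female carcinoma cells. The MHC class I gene H2-K1 stood at 2517 and 2658 CPM in male and female macrophages, against 2227 and 2904.5 CPM in male and female carcinoma cells. Cd274, which encodes PD-L1, was at 223 and 205 CPM in male and female macrophages, against 15.5 and 36.1 CPM in male and female carcinoma cells.

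Bridging molecules differed in direction between the cell classes, and several were found in both. Of the 7 besides Gas6, 5 were at least 1.5-fold higher in macrophages and 2 lower, in both sexes (all genes: 19.9% and 45.2% in male, 20.2% and 43.0% in female tumours). Among the 5, C1qa, C1qb and C1qc are markers of the macrophage gate, so the gate set their direction. Pros1 and Thbs1 were the others. Thbs1 was abundant in both classes, at 2560 and 2169 CPM in male and female macrophages, against 835 and 1105 CPM in carcinoma cells. Pros1, the second ligand of the TAM receptors, resembled Gas6, with 27.0 and 22.9 CPM in male and female macrophages, against 2.37 and 3.17 CPM in male and female carcinoma cells. Mfge8, which links phosphatidylserine to integrins, ran the other way, with 79.3 and 142 CPM in male and female macrophages, against 954 and 596 CPM in male and female carcinoma cells, and so did Anxa1, with 157 and 303 CPM against 1341 and 1272 CPM. Of the 12 other uptake receptors with enough UMIs, 8 were at least 1.5-fold higher in macrophages and 3 lower in male tumours, and 7 and 3 in female tumours, beside the same shares of all genes. The integrin chain Itgb3, part of the MFGE8 receptor, was at 5.67 and 21.8 CPM in male and female macrophages, against 127 and 181 CPM in male and female carcinoma cells, and the scavenger receptor gene Cd36 was at 112 and 115 CPM in male and female macrophages, against 12 and 3 UMIs in male and female carcinoma cells.

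**Figure D2:**
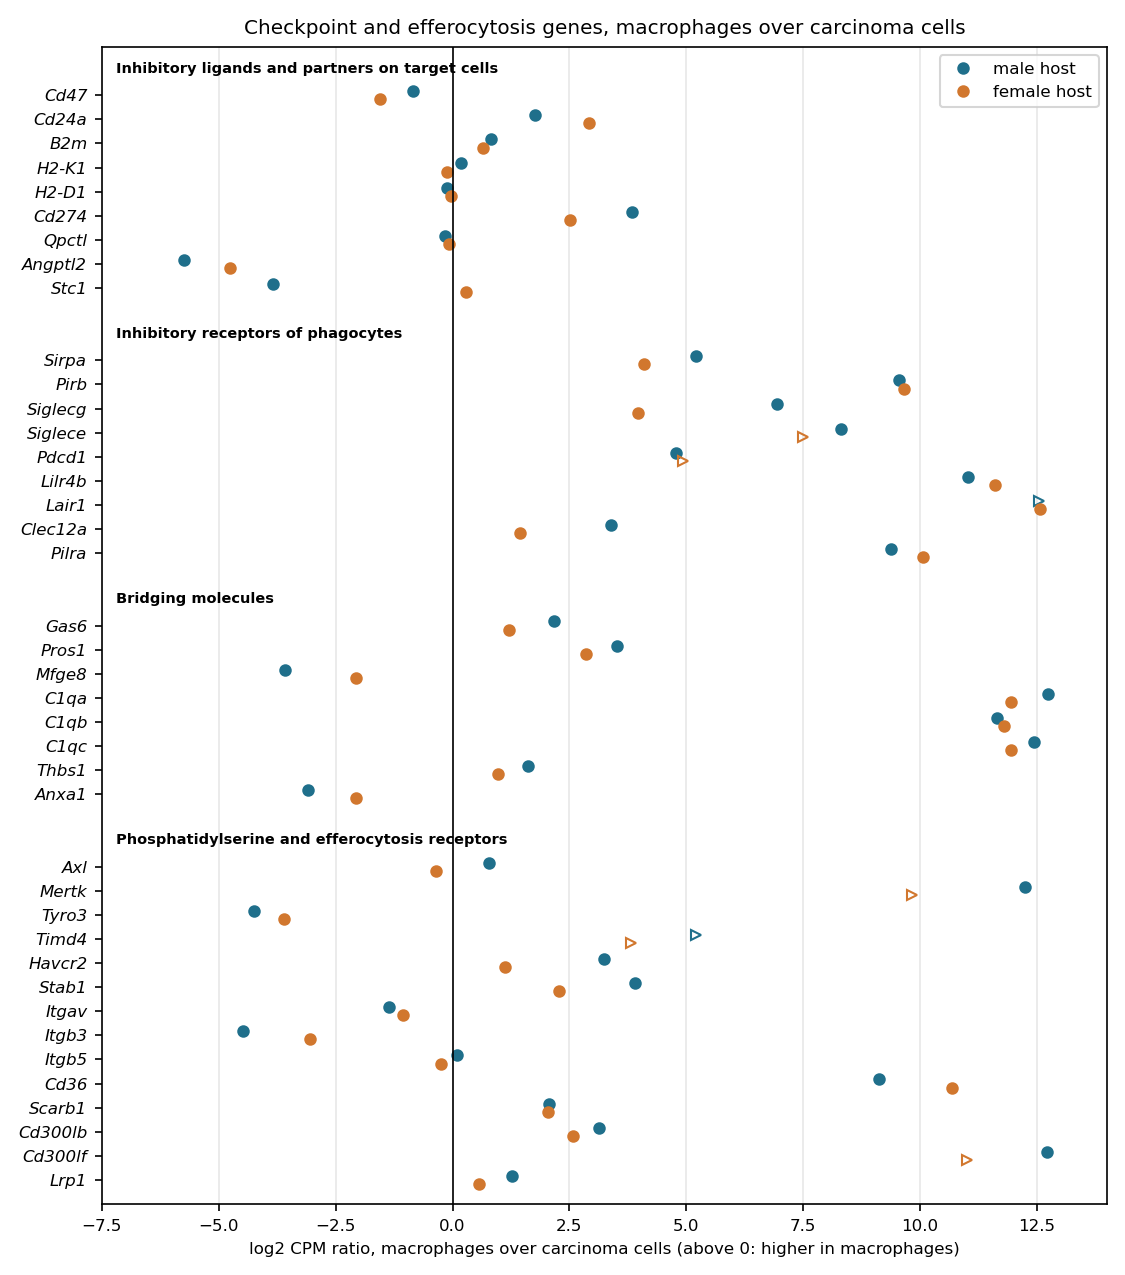
Log2 ratio of CPM in macrophages over carcinoma cells (x axis) for the genes of 4 lists with at least 20 UMIs, male and female tumours separately; open triangles are lower limits where carcinoma cells held no UMI. Inhibitory receptors lie to the right of 0, Cd47, Angptl2, Mfge8 and Anxa1 lie to the left, and Axl lies at 0.78 in male and -0.36 in female tumours, the female sign turning with median-of-ratios scaling.

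Between the sexes, Axl and Gas6 differed in macrophages. Male macrophages held 11836 Axl UMIs, or 541 CPM (532 to 551), against 8389 UMIs, or 332 CPM (325 to 340), in female macrophages, a ratio of 1.63 (1.58 to 1.68). Gas6 had 137 CPM (132 to 142) in male and 87.6 CPM (84.0 to 91.3) in female macrophages, a ratio of 1.56 (1.48 to 1.65) that became 0.824 when the 4 macrophage ranges described further on were weighted equally, and Mertk 80.1 CPM (76.4 to 84.0) and 64.4 CPM (61.3 to 67.6), a ratio of 1.24 (1.16 to 1.33). Sirpa (0.999, 0.968 to 1.03) and Pirb (1.05, 0.992 to 1.11) had intervals that held 1, and Cd47 (1.07, 1.04 to 1.11) was close to it. So 2 of the 6 members were at least 1.5-fold higher in male macrophages, as were 6.6% of 10703 genes, and none was at least 1.5-fold higher in female ones, as were 7.12%. The count of 2 was 1 with Leiden clusters and 0 with the macrophage ranges weighted equally, where Axl was 1.36. Axl exceeded 95.3% of these genes in its ratio and Gas6 94.4%.

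Every member with enough UMIs for a ratio was lower in male than in female carcinoma cells. Cd47 stood at 629 CPM (623 to 635) in cells from male and 957 CPM (948 to 966) in cells from female hosts, a ratio of 0.657 (0.648 to 0.667). Sirpa, low in both, had 540 UMIs (8.94 CPM) in male and 822 UMIs (19.3 CPM) in female carcinoma cells, a ratio of 0.463 (0.415 to 0.517), and Axl and Gas6 had ratios of 0.738 (0.723 to 0.753) and 0.806 (0.753 to 0.862). Pirb and Mertk had too few UMIs for a ratio. Cd47 and Sirpa were thus at least 1.5-fold higher in female carcinoma cells, as were 6.87% of 12313 genes, and no measured member was so in male ones, as were 7.16%. In neutrophils Sirpa was at 215 CPM in male and 310 CPM in female cells (0.694, 0.502 to 0.974). In neutrophils, CD8 T cells, CD4 T cells and NK cells the Cd47 ratios of 0.889 to 1.08 had intervals that held 1.

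**Figure D3:**
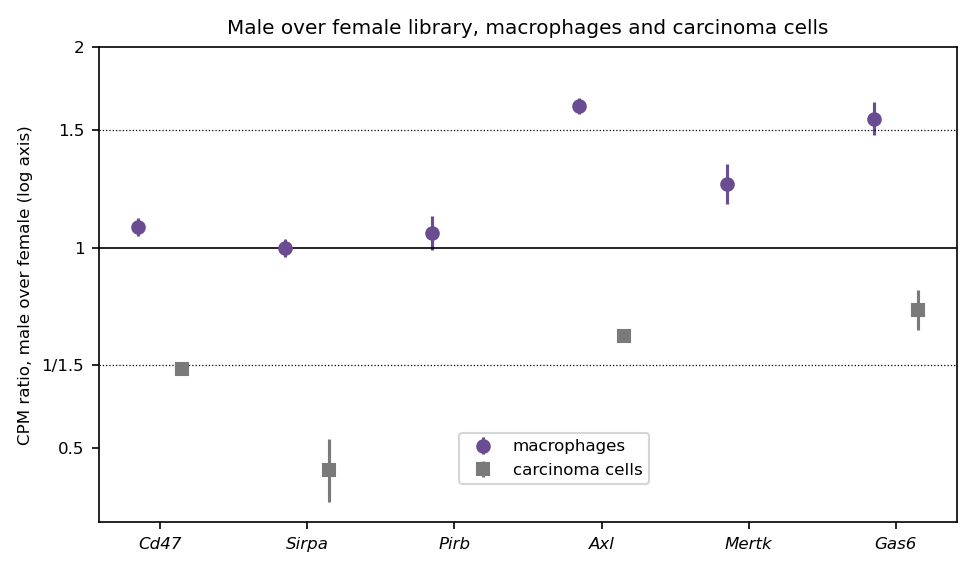
Ratio of CPM in the male over the female library (y axis, log) for each gene in macrophages and carcinoma cells, with 95% counting intervals; dotted lines mark 1.5-fold either way, and Pirb and Mertk have too few UMIs in carcinoma cells. Axl and Gas6 lie above 1.5 in macrophages at 1.63 and 1.56 (Gas6 0.824 with macrophage ranges weighted equally) and below 1 in carcinoma cells at 0.738 and 0.806.

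Macrophages of both libraries were also split by scores of marker genes into 4 ranges called by their leading genes: Chil3 Arg1 (69 male, 776 female cells), Mmp12 Mmp13 Slc7a2 (182 and 589), Retnla Ear2 Mgl2 (533 and 257) and Cx3cr1 C6 Fcrls (845 and 196). A further 359 male and 712 female macrophages scored too close between ranges to be placed. These are ranges of a score and not cell types, their marker genes came from earlier results of these data, and their sizes are not compared as a result because the marker genes themselves differ between the libraries.

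Gas6 varied most among the ranges. It stood at 243 CPM in male and 305 CPM in female Cx3cr1 C6 Fcrls cells, and was lowest in Retnla Ear2 Mgl2 cells of the male (29.0 CPM) and Chil3 Arg1 cells of the female library (28.8 CPM), a spread of 8.40-fold in male and 10.6-fold in female macrophages. In 3 of the 4 ranges Gas6 was lower in male cells: male over female was 0.798 (0.732 to 0.872) in Cx3cr1 C6 Fcrls cells, 0.786 (0.643 to 0.954) in Mmp12 Mmp13 Slc7a2 cells and 0.489 (0.392 to 0.611) in Retnla Ear2 Mgl2 cells, and 1.90 (1.17 to 2.94) in Chil3 Arg1 cells, of which the male library had 69. With the 4 ranges given equal weight the ratio was 0.824, against 1.56 for all macrophages together.

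Axl kept its order in 3 of the 4 ranges. In Cx3cr1 C6 Fcrls cells it stood at 592 CPM in male and 342 CPM in female macrophages (1.73, 1.60 to 1.87), in Retnla Ear2 Mgl2 cells at 543 and 370 CPM (1.47, 1.37 to 1.58), and in Mmp12 Mmp13 Slc7a2 cells at 418 and 307 CPM (1.36, 1.25 to 1.48). Chil3 Arg1 cells went the other way, with 231 and 288 CPM (0.802, 0.647 to 0.985), and the equal-weight ratio was 1.36. This lowest ratio was 0.995 with every macrophage placed in its best range and 0.521 with a stricter score margin of 0.5, which left 41 male cells in the smallest range. Mertk was lowest in Retnla Ear2 Mgl2 cells of both libraries, at 42.6 CPM in male and 47.2 CPM in female cells. Its highest values were in Mmp12 Mmp13 Slc7a2 and Cx3cr1 C6 Fcrls cells, whose intervals overlapped. They stood at 109 and 99.3 CPM in male and at 75.7 and 75.8 CPM in female cells. Pirb was highest in Chil3 Arg1 cells, at 152 CPM in male and 120 CPM in female cells. Cycling macrophages with all 3 cycling markers had less Pirb than those with none, at 67.1 against 121 CPM in male and 43.7 against 110 CPM in female hosts. Cd47 and Sirpa spread over at most 1.61-fold in either library.

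**Figure D4:**
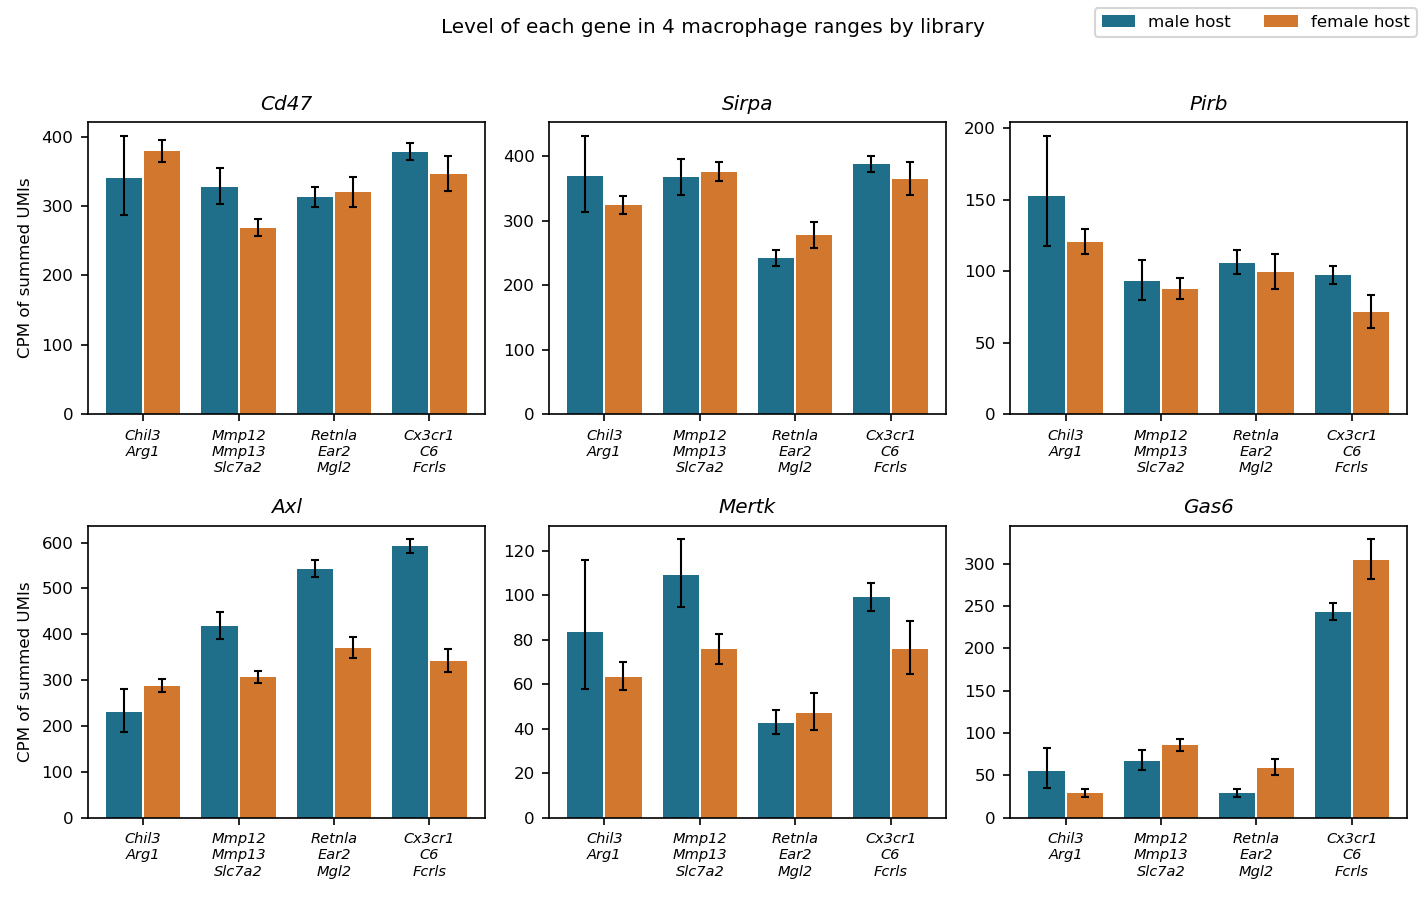
CPM of each gene (y axis, scale differs by panel) in 4 ranges of macrophage marker scores, male and female library side by side, with 95% counting intervals. Gas6 peaks in Cx3cr1 C6 Fcrls cells at 243 CPM in male and 305 CPM in female hosts, and Axl is higher in male cells in all ranges but Chil3 Arg1.

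Other pathway genes differed between the macrophage libraries too. Siglece, an inhibitory sialic acid receptor, stood at 47.0 CPM in male and 12.7 CPM in female macrophages (3.71, 3.27 to 4.21), Clec12a at 77.5 and 37.1 CPM (2.09, 1.93 to 2.27), the phosphatidylserine receptor gene Stab1 at 350 and 163 CPM (2.14, 2.06 to 2.23), and Cx3cr1, the fractalkine receptor that also defines one of the ranges, at 244 and 53.8 CPM. Mfge8 (0.559, 0.528 to 0.593), Anxa1 (0.518, 0.497 to 0.539) and Itgb3 (0.260, 0.212 to 0.317) were lower in male macrophages. In the uptake receptor list 2 of 11 measured genes were at least 1.5-fold higher and 2 lower in male macrophages, and in the engulfment machinery all 8 lay within 1.5-fold, as did 86.3% of all genes, with 6.6% higher and 7.12% lower. In carcinoma cells Mfge8 was higher in the male library (1.60, 1.58 to 1.62), and Cd274 (0.430, 0.396 to 0.466), Havcr2, which encodes the phosphatidylserine receptor TIM-3 (0.232, 0.215 to 0.25), and Cx3cl1, the ligand of CX3CR1 (0.501, 0.470 to 0.535), were lower.

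The profiles most like each gene were sought over 17 class and library profiles with at least 50 cells, by Pearson correlation of log2(CPM + 1) among 14748 genes. They were Bcl2a1a, Csf2rb and Ncf1 for Pirb (r = 0.970, 0.962 and 0.949), Vat1, Ctnnd1 and Vcam1 for Axl (0.948, 0.919 and 0.907), Mfsd1, Entpd7 and Cndp2 for Mertk (0.882, 0.871 and 0.853), Sipa1l1, Myh9 and Zeb1 for Cd47 (0.891, 0.879 and 0.865), and Gla, Cdkn1a and Dpep2 for Sirpa (0.889, 0.881 and 0.877). For Gas6 they were 5033421B08Rik, Slc45a3 and F830016B08Rik (0.865, 0.864 and 0.861). Among the members Axl and Gas6 were the closest pair (0.818), followed by Sirpa and Pirb (0.804). Cd47 ran against every other member: Sirpa (-0.62), Pirb (-0.567), Mertk (-0.555), Gas6 (-0.392) and Axl (-0.148). Profiles of 1 library share its depth and free RNA, and these values are descriptions.

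Within macrophages thinned to 2000 UMIs, detection of pairs of members was compared. Sirpa was found in 49.5% of male macrophages with Cd47 and 44.8% of those without, whereas the order was the opposite in female ones, at 43.8% and 49.9%. Sirpa was found in 55.8% of male macrophages with Gas6 and 44.6% of those without, and in 52.8% and 46.4% of female ones. Mertk was found in 15% of male macrophages with Axl and 14.1% of those without, and in 12.8% and 10.3% of female ones. Axl, whose class profile was closest to that of Gas6 among the members, was found in 58.3% of male macrophages with Gas6 and 57.7% of those without. In female macrophages these shares were 37.5% and 40.4%.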

How the data were processed

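Each of the 4 libraries came as a matrix of raw UMI counts per gene and cell, deposited by the authors without normalization; the unit was checked on the values, which are whole numbers. Per the submitters' processing notes, CASAVA 1.8, UMI-tools and Seurat were used with mm10; the aligner and the gene annotation were not given in the sources used here. Cells were captured in BD Rhapsody microwells, per the labels' protocols. No column was left unused.

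Cells needed at least 500 UMIs, 250 genes and no more than 25% mitochondrial UMIs, and were classed by detected markers with thresholds set after the data were seen, from the markers alone. UMIs were summed per class and library and given as CPM of the class total, with exact Poisson intervals. Intervals of ratios are conditional binomial and those of shares Clopper-Pearson, all exact and at 95%. A count of 0 was set to 3 UMIs for limits and ratios. No test was possible with 1 library per group. Genes behind a background share had at least 100 UMIs, and a fold of 1.5 was used; sex-linked, mitochondrial, ribosomal protein, immunoglobulin and T cell receptor genes were left out there. Genes of a pathway list were named where they reached 20 CPM in macrophages or carcinoma cells of either sex. The ratio code was tested on simulated data. The members, lists and marker sets were chosen with earlier results of these data known. Python 3.11.15, numpy 2.4.6, scipy 1.17.1, pandas 2.3.3 and scanpy 1.11.5 were used. Alternatives were another cell filter or none, stricter gates, Leiden clusters (leidenalg 0.10.2), other scalings and weightings; equal weights of macrophage ranges and the inclusion of cells in 2 gates were added after seeing the data.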

Additional observations from a re-analysis of the deposited data

Results flagged for a closer look

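Some ratios lay on opposite sides of 1 in 2 groups, with both counting intervals clear of 1; with 1 library a group, none of these differences was tested. Axl was 1.72-fold macrophage over carcinoma in male and 0.778 in female tumours, and male over female it was 1.63 in macrophages and 0.738 in carcinoma cells; both pairs give the same ratio of ratios, 2.21, and the female macrophage to carcinoma value crossed 1 with median-of-ratios scaling. Gas6 was 1.56 male over female in macrophages and 0.806 in carcinoma cells, a ratio of ratios of 1.94; with the macrophage ranges weighted equally the macrophage value was 0.824, on the same side of 1 as in carcinoma cells. Cd47 was 1.07 in macrophages and 0.657 in carcinoma cells, a ratio of ratios of 1.63. Among macrophage ranges, male over female Axl was 1.73 in Cx3cr1 C6 Fcrls and 0.802 in Chil3 Arg1 cells, a ratio of ratios of 2.16, and Gas6 was 1.90 in Chil3 Arg1 and 0.489 in Retnla Ear2 Mgl2 cells, a ratio of ratios of 3.88; both rest on the 69 male Chil3 Arg1 cells.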

How the results depend on the processing

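No paired analysis was possible because each group has 1 library. The alternatives were stricter or no cell filters, 1 more marker per gate, Leiden clusters, leaving out the 5% of cells with most UMIs, 2 other scalings and the mean of the cells' own CPM. Ratios in other immune classes and within macrophage ranges were not recomputed under them. Among the members' macrophage over carcinoma ratios, and their male over female ratios in macrophages and carcinoma cells, those with a counting interval clear of 1 kept their direction with 1 exception: the Axl macrophage to carcinoma ratio in female tumours was 1.02 with median-of-ratios scaling, 0.757 without the cells with most UMIs and 0.70 as a mean over cells. In male tumours it was 2.35 and 1.68 with that scaling and as that mean. Axl male over female in macrophages was 1.70 without the cells with most UMIs and 1.76 as a mean over cells, where Gas6 was 1.81 and Mertk 1.38. With Leiden clusters 1 member, not 2, was at least 1.5-fold higher in male macrophages (Gas6 at 1.48), and with median-of-ratios scaling 0 members, not 1, were at least 1.5-fold lower in macrophages of male tumours.

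Thinning to 1000 and 2000 UMIs per cell left 2 and 3 members, against 5 without thinning, with a share of positive cells higher in male macrophages beyond both counting intervals, and male minus female for Pirb was -0.30 and -0.13 percentage points. With a minimum of 20 UMIs, 11.3% of genes were at least 1.5-fold higher in female macrophages and 11.2% in male carcinoma cells. The cause of these shifts was not tested.

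Chosen after seeing the data, equal weights of the 4 macrophage ranges gave male over female ratios of 0.824 for Gas6 and 1.36 for Axl, with 0 members past 1.5-fold; a score margin of 0 gave 0.832 and 1.38, and a margin of 0.5 gave 0.815 and 1.31, again with 0 members. With the cells of 2 gates added, Axl macrophage over carcinoma was 1.58 in male and 0.732 in female tumours. Mertk and Pirb had too few UMIs in carcinoma cells for a male over female ratio, and 1 library a group leaves the spread between animals unknown.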
